A study of Homo sapiens with 8 samples.

Results

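The elements described here are genomic sites bound by CEBPB in HepG2 cells but not in K562 cells that lack RNA polymerase II, tested as reporter plasmids in both cell lines. They were chosen by the class that the deposited table gives each element, and by its being a bound site rather than a scrambled sequence, with no use of any measured activity. The table does not define its classes, and the reading of this class as HepG2-only binding without the polymerase follows the series title. The class holds 410 of the 1730 bound sites and of the 3095 elements of the library. For 350 of the 410 sites the library also holds a scrambled sequence of the same name, which serves as the reference, and for 60 sites the table lists none.

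HepG2 is a human hepatocellular carcinoma line and K562 a human leukaemia line. Each line was transfected with the plasmid pool in 2 independent experiments, and each transfection gave a DNA library and an RNA library, so the HepG2 DNA, HepG2 RNA, K562 DNA and K562 RNA groups each hold 2 libraries. No other treatment or genotype is given, and the plasmids were carried transiently, outside the chromosome. Every element was joined to 4 reporter barcodes of 9 bases, carried in the untranslated 3' end of the luciferase transcript. Library totals lay between 9965393 and 10193122 reads, and the 410 sites took between 10.7% and 11.6% of each.

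CEBPB is a basic leucine zipper transcription factor that binds DNA as a dimer, with itself or with other C/EBP proteins. In liver cells it is known for the control of acute-phase and metabolic genes, and in blood cells for myeloid differentiation. Binding of a transcription factor at a distal site does not by itself make that site an enhancer. RNA polymerase II is found at many active enhancers, where it produces short enhancer transcripts, and the study concerns its presence away from promoters at CEBPB sites that are active or inactive. The reporter assay, CRE-seq, measures an element's activity as the RNA carrying its barcodes relative to the DNA of the same barcodes in the same cells. Activity is given here as log2 RNA/DNA after scaling on the scrambled sequences, so that 0 is the level of a typical scramble and 1 is a doubling.

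The sequences at hand are the barcodes, not the genomic inserts, so the barcodes of 4 elements on which the results turn are given with their values. They are printed in the letters and direction of the table, whose strand is not stated, and no capitals are used because every base of a barcode serves the identification alike. The first set belongs to the site most active across both lines, the second set to its own scramble, the third to a site whose high value rests on a single barcode, and the fourth to a site active in HepG2 alone.
chr16:22308680 barcode A: aggatgaac
chr16:22308680 barcode B: agtggcgcc
chr16:22308680 barcode C: cacagaatt
chr16:22308680 barcode D: tacactgct
chr16:22308680 scramble barcode A: aagttgact
chr16:22308680 scramble barcode B: acggctctc
chr16:22308680 scramble barcode C: ttagcgctt
chr16:22308680 scramble barcode D: ttccgcggt
chr6:89850041 barcode A: caatctgct
chr6:89850041 barcode B: ccacgttat
chr6:89850041 barcode C: gattaacta
chr6:89850041 barcode D: gtagttgat
chr20:52417504 barcode A: aaggttggg
chr20:52417504 barcode B: cctaagaca
chr20:52417504 barcode C: cctcgtgta
chr20:52417504 barcode D: taagtagct

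The barcodes of an element did not always agree, and these sets show both cases. In HepG2, the 4 barcodes of chr16:22308680 gave log2 RNA/DNA of 4.30, 4.10, 3.95 and 4.12 for A to D, means of both transfections, and its scramble's barcodes gave 1.31, 1.23, 1.30 and 0.91. The barcodes of chr20:52417504 gave 2.84, 2.66, 2.30 and 2.45 in HepG2 and 0.05, -0.76, 0.04 and -1.44 in K562. At chr6:89850041 barcode B gave 5.17 in HepG2, with 321 and 194 DNA reads and 6370 and 5410 RNA reads, whereas A gave 0.09 and D -0.50. Its barcode C had 7 and 1 HepG2 DNA reads and was left out by the minimum of 10 reads in every DNA library. The first and the last site thus carry a value that every barcode shows, and chr6:89850041 does not.

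Of the 410 sites, 298 had at least 3 barcodes with 10 or more reads in every DNA library and were tested, 72.7%. Of the remainder, 48 sites had 2 such barcodes, 47 had 1 and 17 had 0, and these 112 untested sites had a median of 158.1 DNA reads per library over all their barcodes. Scrambles of the class passed in 258 of 350 cases, 73.7%. HepG2-only sites with RNA polymerase II passed in 377 of 431 cases, 87.5%, beside 74.3% of all bound sites and 75.3% of all elements. The class without the polymerase was thus measured about as completely as the library, and less completely than the sites with it. The tested sites had a median of 2928 DNA reads per library against 3306 for their scrambles and 3740 for sites with the polymerase.

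Most of the 298 sites lay at the level of scrambled sequence in HepG2, the line in which they are bound. Their median log2 RNA/DNA was 0.11 in HepG2 transfection 1 and 0.09 in transfection 2, against 0.03 and 0.01 for the 258 scrambles of the class. The middle of the distribution, from the 25th to the 75th percentile of the mean of both transfections, ran from -0.17 to 0.44, against -0.16 to 0.17 in the scrambles. The bulk of both sets overlapped, and the sites extended further upward. The 95th percentile was 1.34 for the sites and 0.72 for their scrambles, 30 sites exceeded 1 and 8 exceeded 2, and of the scrambles 7 exceeded 1 and 0 exceeded 2. For the 377 HepG2-only sites with the polymerase the 95th percentile was 2.86, and 41 of them exceeded 2. Their median of the mean of both transfections was 0.23, against 0.06 for the 298 sites and 0.01 for the 258 scrambles. These differences between classes are descriptions, with elements as the points, and were not tested.

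In K562, where these sites are not bound, the 298 sites had a median of -0.04 in transfection 1 and 0.02 in transfection 2, and their scrambles 0.02 and -0.0004. The middle of the distribution ran from -0.21 to 0.21 for the sites and from -0.18 to 0.18 for the scrambles. The 95th percentile was 0.67 against 0.51 in the scrambles and 0.81 over all elements, 6 sites exceeded 1 and 2 exceeded 2. Of the scrambles 3 exceeded 1 and 0 exceeded 2. Below -1 lay 8 sites and 5 scrambles, and the lowest values were -2.57 and -1.57. The middle of the K562 distribution of the sites was thus close to that of scrambles, and only a few sites extended its upper tail. The 8 low sites had only 118.5 to 711.2 DNA reads per library, and scrambles of all classes reached -2.79 in K562. No difference is therefore read from the lower tail. Across the 298 sites the HepG2 and K562 means were related with r = 0.356 (Pearson) and rho = 0.353 (Spearman), a description over sites whose points share the plasmid pool and its DNA depth. The K562 transfections were themselves related over these sites with only r = 0.372 and rho = 0.431, and the HepG2 transfections with 0.857 and 0.722.

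A site was called active when edgeR's quasi-likelihood test of RNA against DNA gave an adjusted p under 0.05 and its log2 RNA/DNA lay above the 95th percentile of all tested scrambles, which was 0.66 in HepG2 and 0.52 in K562. Repressed sites passed the same test below the 5th percentile, at -0.45 and -0.52. In HepG2, 44 of 298 sites were active, 14.8%, beside a background of 14.0% active over all 2332 tested elements and 21.7% over the 1286 bound sites of all classes. The share among these sites is near that of the whole library and below that of bound sites in general. Of their scrambles 14 of 258 were active, 5.43%. Of all 1046 tested scrambles 4.59% were active, a share that the percentile rule itself holds low. These scrambles are part of the 2332 elements and so lower the background of 14.0%.

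The median over the 44 active sites was 1.11, or 2.15 times the level of a typical scramble. All 44 were above 0 in both HepG2 transfections, 36 lay above the threshold in both, and in 35 every passing barcode was above 0. These sites held 17.1% and 17.5% of the DNA reads of the 298 sites in the HepG2 transfections and gave 38.7% and 39.6% of the RNA reads. The 44 were chosen by these same reads, so these figures describe them and are no independent check. Without HepG2 transfection 1 the count was 28 and without transfection 2 it was 29, of which 27 and 29 were among the 44. With the median over barcodes in place of their sum 29 sites were active, and with the 99th percentile of scrambles as the threshold 15 were. Of the 44 sites, 17 stayed active under each of the 12 alternatives other than the stricter percentile.

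The site with the highest fitted value in HepG2 was chr6:89850041, at 4.43 in transfection 1 and 4.67 in transfection 2 (fitted 4.54 ± 0.29 SE, edgeR adjusted p = 1.75e-06). This value is that of its barcode B, and without that barcode the fit gave 0.02 (edgeR adjusted p = 0.985). The second, chr16:22308680, reached 3.95 and 4.29 (fitted 4.13 ± 0.11 SE, edgeR adjusted p = 3.92e-09), from 6576 and 6494 DNA reads and 67138 and 81688 RNA reads. It alone gave 6.25% and 7.61% of the HepG2 RNA reads of the 298 sites. Both transfections and all 4 barcodes of chr16:22308680 were high, so that it is the most active site of the class whose value does not hang on a single barcode.

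Below it came 6 sites between 2.01 and 2.63 in the fit. Site chr20:52417504 was at 2.69 and 2.56 in the HepG2 transfections, with 16961 and 15563 RNA reads on 3987 and 4095 DNA reads (edgeR adjusted p = 2.69e-07). Site chr9:132258304 was at 2.54 and 2.51 (edgeR adjusted p = 1.79e-08), with barcodes from 1.99 to 2.76. Both sites repeated closely between the HepG2 transfections, and of the pair only chr9:132258304 was also active in K562. Site chr8:136656626 was at 2.14 and 2.37 (edgeR adjusted p = 1.03e-06), and chr2:192242126 at 2.19 and 2.32 with 3 passing barcodes (edgeR adjusted p = 2.44e-08). Site chr20:32995883 was at 2.31 and 2.13 (edgeR adjusted p = 1.15e-08), and chr22:43804178 at 2.10 and 1.91 (edgeR adjusted p = 7.27e-07). In each of these 6 sites the lowest barcode exceeded 1.70, and the call held under every alternative run, the stricter percentile included.

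The threshold cuts through a continuous range. Just inside it in HepG2 lay chr22:37429000 at 0.66 and chr19:33864632 at 0.66 in the fit, and just outside, among sites past the adjusted p, chr12:12473346 at 0.65 and chr5:167956228 at 0.64. In all, 76 of 298 sites were above 0 with an edgeR adjusted p under 0.05. The share of all elements that passed this looser rule was not counted, so the number is not set against the library. The last of the 4 had values of 0.65 and 0.63 in the HepG2 transfections and 0.69 and 0.84 in K562, where it was active, and the difference between the lines did not pass (HepG2 minus K562 -0.12 ± 0.09 SE, edgeR adjusted p = 0.446).

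In K562, 23 of 298 sites were active, 7.72%, beside 8.15% over all tested elements and 12.8% over bound sites of all classes, and 8 of 258 scrambles, 3.1%. The share is again near that of the whole library, in which the rule again holds the scrambles low. The median of the 23 sites was 0.74, or 1.67 times a typical scramble, all were above 0 in both K562 transfections and 15 lay above the threshold in both. These figures too come from the reads by which the sites were chosen. Without K562 transfection 1 the count was 11, of which 10 were among the 23, and without transfection 2 it was 17, of which 14 were. The median over barcodes gave 6 and no minimum count gave 15. Of the 23 sites 5 stayed active under the same 12 alternatives.

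The most active site in K562 was chr16:22308680, at 3.68 and 3.54 in the transfections (fitted 3.61 ± 0.10 SE, edgeR adjusted p = 2.27e-08), with barcodes A to D at 3.57, 3.59, 3.50 and 3.71. Site chr9:132258304 followed at 2.10 and 1.91 (edgeR adjusted p = 2.27e-07). Every barcode of both sites was high in K562, the lowest at 3.50 and 1.77. Site chr2:192242126 was at 1.09 and 1.19 (edgeR adjusted p = 7.17e-06), and chr8:136656626 at 0.84 and 1.20 (edgeR adjusted p = 0.000565, and 0.0519 in limma on the median barcode).

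The other 2 of the 6 highest K562 values were less secure. Site chr1:204121115 was at 1.02 and 1.73 (fitted 1.36 ± 0.24 SE, edgeR adjusted p = 0.00458), with barcodes from -0.45 to 2.06. Without K562 transfection 2 it was at 1.04 and without its highest barcode at 1.02 (edgeR adjusted p = 0.0605 and 0.0952). Site chr6:13406531 was at 0.41 and 1.67 (fitted 1.13 ± 0.32 SE, edgeR adjusted p = 0.0421). Its barcode caatagcca gave 257 RNA reads in K562 transfection 1 and 1218 in transfection 2 on 268 and 218 DNA reads. Without K562 transfection 2 the site was at 0.42 (edgeR adjusted p = 0.382), without HepG2 transfection 1 or 2 at 1.13 (0.139 and 0.138), and with the replicate number as a block at 1.12 (0.0559). In both sites transfection 2 was the higher one.

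Sites active in both lines numbered 10, 3.36% of those tested, beside 5.15% over all elements and 8.09% over bound sites of all classes. They are 22.7% of the sites active in HepG2 and 43.5% of those active in K562. The highest of these by the lower of both values were chr16:22308680, chr9:132258304, chr2:192242126, chr8:136656626 and chr18:56272750. The last was at 1.27 and 1.13 in HepG2 and at 0.62 and 1.08 in K562 (edgeR adjusted p = 0.000301 and 0.00457). Its HepG2 value without HepG2 transfection 1 was 1.13 (edgeR adjusted p = 0.0534), and its K562 value without HepG2 transfection 1 or 2 was 0.87 (0.051 and 0.0514). Its HepG2 barcodes lay between 0.15 and 1.84, and without the highest it was at 0.48 in HepG2 and 0.53 in K562 (edgeR adjusted p = 0.0644 and 0.0882) and both calls were lost. By the median barcode it was at 0.54 and 0.72 (limma adjusted p = 0.229 and 0.182). The first 4 of the 5 kept their calls in both lines with any transfection left out. Activity was called in HepG2 alone in 34 sites, 11.4%, beside 8.88% over all elements and 13.6% over bound sites. It was called in K562 alone in 13 sites, 4.36%, beside 3.0% and 4.67%, and in neither line in 241.

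Whether a site differed between the lines was tested as the HepG2 minus K562 difference of log2 RNA/DNA in the same edgeR fit. The difference passed in favour of HepG2 in 41 of 298 sites, 13.8%, beside 12.8% over all elements and 19.1% over bound sites of all classes, and in favour of K562 in 9 sites, 3.02%, beside 3.95% and 5.29%. Of the scrambles of the class, 9 were higher in HepG2 and 4 in K562. The median difference was 0.09 over the sites, -0.02 over their scrambles and 0.03 over all elements. Of the 34 sites called active in HepG2 alone, 27 differed between the lines and in 7 the difference did not pass. Of the 13 called in K562 alone, 2 differed and in 11 the difference did not pass. Without HepG2 transfection 1 the difference passed in 21 sites for HepG2 and 2 for K562, and without transfection 2 in 20 and 2. Taking each element's median barcode it passed in 9 and 2, and dropping its highest barcode in 23 and 5.

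Among the 5 largest differences in favour of HepG2, 3 were carried by every barcode. Site chr20:52417504 was at 2.69 and 2.56 in HepG2 and at -0.23 and 0.11 in K562, a difference of 2.67 ± 0.18 SE (edgeR adjusted p = 6e-06). Site chr22:43804178 was at 2.10 and 1.91 against -0.23 and 0.07 (difference 2.08 ± 0.16 SE, edgeR adjusted p = 1.46e-05), and chr20:32995883 at 2.31 and 2.13 against 0.27 and 0.25 (difference 1.96 ± 0.09 SE, edgeR adjusted p = 6.72e-07). In these 3 sites the HepG2 and K562 values did not overlap in transfections or in barcodes. The other two, chr6:89850041 at 4.85 and chr8:71361041 at 1.98 (edgeR adjusted p = 2.53e-05 and 0.000448), rested on their highest barcode, without which the differences were -0.12 and 0.33 (0.96 and 0.878).

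Differences in favour of K562 were smaller, all 9 below 1 in size. The largest was at chr9:137118098, at 0.02 and -0.06 in HepG2 and 0.83 and 0.93 in K562 (difference -0.90 ± 0.10 SE, edgeR adjusted p = 0.000198), with K562 barcodes between 0.67 and 0.99. Site chr2:8819195 was at -0.17 and -0.11 against 0.50 and 0.60 (difference -0.69 ± 0.10 SE, edgeR adjusted p = 0.000873). These 2 sites, active in K562 alone, kept the difference with any transfection left out, but that of chr2:8819195 was -0.74 by the median barcode (limma adjusted p = 0.147). The other 3 of the 5 largest were not active in either line: chr3:80692728 at -0.39 in HepG2 and 0.38 in K562, chr16:30500107 at -0.65 and -0.08, and chr6:35370482 at -0.43 and 0.11, means of both transfections. Their differences of -0.78, -0.58 and -0.54 had edgeR adjusted p of 0.0137, 0.0114 and 0.00607, which became 0.151, 0.176 and 0.0739 without HepG2 transfection 1 and 0.106, 0.0822 and 0.084 without HepG2 transfection 2, and that of chr3:80692728 became 0.059 without K562 transfection 1.

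Few sites were repressed. In HepG2 there were 5, 1.68%, beside 2.44% over all elements and 1.87% over bound sites, and 8 scrambles of the class, and in K562 there were 4, 1.34%, beside 1.24% and 1.24%, and 1 scramble. Site chr12:120619850 was low in both lines, at -1.19 and -1.14 in HepG2 and -1.08 and -1.12 in K562, with all 3 passing barcodes below 0 in each. In HepG2, chr16:30500107 was at -0.73 and -0.58 (edgeR adjusted p = 0.000372), with barcodes between -0.76 and -0.48, and it kept its call under every alternative run. Its difference from its own scramble did not pass (-0.43, limma adjusted p = 0.0703).

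The other repressed calls were less secure. In HepG2 chr12:120619850 (edgeR adjusted p = 0.0053) was at -1.14 and -1.19 without HepG2 transfection 1 and 2 (edgeR adjusted p = 0.122 and 0.113), chr1:117914496 went from -0.59 (0.0011) to -0.55 and -0.63 (0.0836 and 0.0502), and chr10:114501923 from -0.51 (0.00528) to -0.58 and -0.45 (0.107 and 0.173). In K562 none of the 4 calls was kept without K562 transfection 2: chr12:120619850 went from -1.10 (edgeR adjusted p = 0.0133) to -1.07 (0.0739), chr12:107162987 from -0.61 (0.00591) to -0.52 (0.0538), chrX:2683274 from -0.54 (0.022) to -0.59 (0.104) and chr1:245031620 from -0.53 (0.0231) to -0.39 (0.197). With the replicate block the last 2 stood at -0.54 and -0.53 (0.0285 and 0.0353) and were no longer below the 5th percentile. Without K562 transfection 1 there were 8 repressed sites in K562, of which 1 was among the 4, and without K562 transfection 2 there was 1. Without either HepG2 transfection there was 1 repressed site in HepG2 and there were 2 in K562, and without either K562 transfection there were 8 in HepG2.

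Each site was also set against its own scramble within each transfection. In 222 pairs both elements passed the count filter, and the log2 RNA/DNA of the site minus that of its scramble was fitted with limma over all 901 such pairs of the library. In HepG2 the site was called higher in 32 of 222 pairs, 14.4%, beside 23.8% over all pairs, and lower in 20, 9.01%, beside 5.44%. In K562 it was called higher in 14 pairs, 6.31%, beside 10.2%, and lower in 7, 3.15%, beside 2.22%. Over the 222 pairs the median difference was 0.08 in HepG2 and -0.03 in K562, against 0.16 and 0.11 over all pairs, and the site lay above its scramble in 125 pairs in HepG2 and 106 in K562. A site of this class was thus above its scramble about as often as below it in K562.

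These counts depend on how the spread is estimated. With the replicate number as a block, limma called 11 pairs higher and 6 lower in HepG2, and 0 higher and 0 lower in K562, where 21 and 9 pairs had an unadjusted p under 0.05. With the spread of HepG2 alone the HepG2 counts were 51 and 31. Without HepG2 transfection 1 they were 17 and 8, without HepG2 transfection 2 they were 16 and 7, and without either K562 transfection 51 and 31. Without K562 transfection 1 the K562 counts were 25 and 21. The 4 largest positive HepG2 differences kept their direction and their calls under all of these.

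Of the 29 HepG2-active sites in a tested pair, 23 were called higher than their scramble. Both calls use the same reads of the site, so this overlap is in part given by the choice of active sites. The largest difference was at chr16:22308680, whose site was at 3.95 and 4.29 and whose scramble was at 1.18 and 1.20 in the HepG2 transfections (difference 2.93, limma adjusted p = 0.000249). Next came chr20:32995883 at 2.35 (limma adjusted p = 0.000598), chr2:192242126 at 2.28 (0.000481) and chr20:52417504 at 2.20 (0.00174). The scrambles of these 3 sites were at -0.13, -0.03 and 0.42 in the mean of the HepG2 transfections, and none of the 3 was active. The HepG2-active sites chr22:43804178 and chr6:89850041 could not be ranked here, because their scrambles had too few passing barcodes. Of the 29 active sites 1 had an active scramble in HepG2, and in K562 this held for 2 of 17, beside 5.43% and 3.1% active among all tested scrambles of the class.

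In the pairs called lower, the scramble was often the active element. Of the 20 pairs called lower in HepG2 the scramble was active in 10 and the site repressed in 1. A low difference selects pairs with a high scramble, so this too is in part given by the choice. The largest such difference was at chr16:87561818, where the site was at -0.49 and -0.09 in the HepG2 transfections and the scramble at 1.81 and 1.58 (difference -1.98, limma adjusted p = 0.00161). The scramble of this site was the most active scramble of the class in HepG2 and was also active in K562, at 1.62 and 1.64, with the K562 pair differing by -1.73 (limma adjusted p = 0.00747, and 0.11 with the replicate block). Its barcodes catgcggtg, ctaatcatt, gtgagcaag and taatcatga gave 1.31, 1.73, 2.03 and 0.47 in HepG2, so that 3 of the 4 were high, and taatcatga, on 30 and 29 HepG2 DNA reads, was at -0.39 in K562.

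The other 3 pairs with the largest negative differences in HepG2 rested largely on a single barcode of the scramble. Their differences were -1.41 at chr1:213993945, -1.41 at chr20:49006838 and -1.39 at chr2:115305914 (limma adjusted p = 0.00365, 0.00347 and 0.00523). In each the scramble was active and its highest barcode stood well above the others: attcacgag at 2.75 beside barcodes from -0.99 to 0.40, tccgctatg at 2.62 beside barcodes from -0.12 to 1.11, and tcctggatt at 2.10 beside barcodes from -0.13 to 0.39. Dropping the highest barcode left differences of -0.45, -0.17 and -0.60 (limma adjusted p = 0.452, 0.698 and 0.139). With the replicate block that of chr2:115305914 was -1.36 (0.0745). By the median barcode the scramble of chr20:49006838 was still active in HepG2, at 0.72 (limma adjusted p = 0.0394).

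In K562 the pairs with the largest positive differences were chr17:73972391 at 1.72, chr16:22308680 at 1.66, chr2:11528208 at 1.51 and chr2:192242126 at 1.29 (limma adjusted p = 0.0149, 0.00438, 0.0128 and 0.00772). With the replicate block they were at 2.02, 1.63, 1.42 and 1.22 (0.0727, 0.0954, 0.155 and 0.111). In chr16:22308680 and chr2:192242126 the site was active in K562. In chr17:73972391 and chr2:11528208 it was not, at 0.59 and 0.31 in the mean, and the scramble was at -1.13 and -1.20 on 86 and 83 and on 107 and 67 RNA reads. The difference of the latter pairs therefore comes with a scramble measured on few RNA reads.

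The pairs with the largest negative differences in K562, after chr16:87561818, were chr12:120619850 at -1.41, chr2:8819195 at -1.40 and chr16:76157977 at -1.03 (limma adjusted p = 0.0258, 0.00942 and 0.0149, and 0.193, 0.0727 and 0.135 with the replicate block). That of chr16:76157977 was -0.79 without the highest barcode and turned to 0.10 by the median barcode (limma adjusted p = 0.137 and 0.804). At chr2:8819195 both elements were active in K562, the site at 0.50 and 0.60 and its scramble at 2.08 and 1.81. That scramble was at 0.24 and 0.01 in HepG2, a HepG2 minus K562 difference of -1.82 ± 0.13 SE (edgeR adjusted p = 8.73e-06). Its barcodes actgttgag, cgctcagag, tcgtcagcc and ttcaatggg gave 1.05, 2.18, 1.69 and 2.34 in K562. The most active scramble of the class in K562 was therefore nearly tied between this sequence and the scramble of chr16:22308680, both at a fitted 1.95.

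Whether the difference between a site and its scramble itself changed between the lines was fitted as well. It was larger in HepG2 in 14 of 222 pairs, 6.31%, beside 11.2% over all pairs, and larger in K562 in 9, 4.05%, beside 4.0%. Across the 222 pairs the activities of a site and its scramble were related with r = 0.111 in HepG2 and 0.235 in K562 (Pearson) and rho = 0.0917 and 0.0869 (Spearman). These correlations are over pairs measured in the same libraries, and are descriptions.

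Precision followed depth. The standard deviation between barcodes of a site, by the median over sites, was 0.35 in HepG2 and 0.40 in K562, and the scrambles were at 0.32 and 0.36. Among the 99 sites with the fewest DNA reads, up to 1610.8 per library, it was 0.63 in HepG2 and 0.93 in K562, among the next 100 it was 0.36 and 0.40, and among the 99 with the most, from 4278 reads, 0.27 and 0.22. Active calls in HepG2 numbered 11, 16 and 17 from the shallowest to the deepest of these sets and in K562 4, 8 and 11. The spread between barcodes was thus widest, and calls were fewest, where the DNA was shallowest, and the part of depth in the calls was not tested. Between transfections, log2 RNA/DNA of the 298 sites had r = 0.857 (Pearson) and rho = 0.722 (Spearman) in HepG2, and r = 0.372 and rho = 0.431 in K562.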

How the data were processed

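The authors deposited whole read counts for each barcode in each library, as the file headers name them, and no scaling of these is recorded. The submitters' processing notes name cutadapt and hg19, without a version or a role. How reads were counted or filtered, and whether depth was equalised between libraries, was not given in the sources used here. Element sequences were not used here, and no site was assigned to a gene.

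A barcode needed 10 reads in each DNA library, and an element 3 such barcodes, whose reads were then summed and tested. Libraries were scaled by TMM on the scrambled sequences. RNA was tested against DNA, and the lines against each other, with edgeR 4.0.16 (R 4.3.3, quasi-likelihood, 8 libraries in 4 groups, no block). Values per transfection are log2 of scaled reads plus a pseudocount of 1. Site minus scramble was fitted with limma 3.58.1 over all pairs. P-values were adjusted by Benjamini-Hochberg over all elements or pairs. The scripts were tested on simulated data. DESeq2 1.42.0 was an alternative.

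With 2 transfections per line no exact permutation test can pass, so p-values rest on a spread shared between groups and cover these transfections. The lines share an estimate of the spread although, over these sites, transfections differed with an SD of 0.37 in HepG2 and 0.68 in K562. An SE covers summed reads, not the spread between barcodes. Barcode reads carry no molecular identifiers.

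Per the labels' protocols the libraries of a replicate experiment were pooled on a single lane, so the number marks a shared batch. Deviations from the group mean correlated between same-numbered libraries of different groups with r from 0.17 to 0.584. The replicate block is an alternative, and is given where it changes a call.

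Named sites follow a rule: the most active and most repressed sites of each line, the largest differences between lines and from the scramble in each direction, the sites highest in both lines, the most active scrambles and the sites next to the threshold. The barcodes shown, and the neighbouring sites and barcode composition below, were chosen after their values were seen. The sites, comparisons and lists were chosen with earlier results of these data known.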

Additional observations from a re-analysis of the deposited data

Results flagged for a closer look

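Named elements whose activity differed between the cell lines by the edgeR test of the HepG2 minus K562 difference are given here with that log2 difference and its adjusted p. Higher in HepG2 were chr6:89850041 at 4.85 (2.53e-05), chr20:52417504 at 2.67 (6e-06), chr22:43804178 at 2.08 (1.46e-05), chr8:71361041 at 1.98 (0.000448) and chr20:32995883 at 1.96 (6.72e-07). Without their highest barcode chr6:89850041 and chr8:71361041 were at -0.12 and 0.33.

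Some sites active in both lines were also higher in HepG2. They were chr8:136656626 at 1.23 (edgeR adjusted p = 0.00137), chr2:192242126 at 1.12 (6.76e-05), chr16:22308680 at 0.52 (0.0248) and chr9:132258304 at 0.52 (0.0121). A site just inside the threshold of activity in HepG2, chr22:37429000, was higher in HepG2 by 0.64 (0.00849).

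Higher in K562 were chr9:137118098 at -0.90 (edgeR adjusted p = 0.000198), chr3:80692728 at -0.78 (0.0137), chr2:8819195 at -0.69 (0.000873), chr16:30500107 at -0.58 (0.0114) and chr6:35370482 at -0.54 (0.00607).

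Scrambled sequences differed between the lines as well. The scramble of chr20:49006838 was higher in HepG2 by 1.52 (edgeR adjusted p = 7.86e-05), while those of chr2:8819195 and chr16:22308680 were higher in K562, at -1.82 (8.73e-06) and -0.76 (0.000102). At chr16:22308680 the site and its scramble thus differed between the lines in opposite directions.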

How the results depend on the processing

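The counts below are those that moved by more than 1.5 times, beside the values of the report. Bracketed counts at an unadjusted p under 0.05 take the direction alone, without the percentile or the added fold. With the median over barcodes, tested with limma, 29 sites were active and 2 repressed in HepG2, and 6 were active and 1 repressed in K562. The lines then differed in 11 sites (9 higher in HepG2, 2 in K562), and 16 sites lay above and 4 below their scramble in HepG2 and 6 above in K562. Without the highest barcode of each element 3 sites were repressed in HepG2 and 0 in K562 (22 by edgeR at an unadjusted p under 0.05). The lines then differed in 28 sites (23 and 5), and the pairs counted 14 above and 3 below in HepG2 and 3 and 2 in K562. The 99th percentile left 15 active and 2 repressed in HepG2 and 7 and 1 in K562. With no minimum count 15 sites were active and 0 repressed in K562 (29 by edgeR at an unadjusted p under 0.05), 8 lay below their scramble in HepG2, and 0 above and 0 below in K562 (25 and 21 by limma at an unadjusted p under 0.05). A fold above 2 in addition left 17 differences between the lines, 17 for HepG2 and 0 for K562 (22 by edgeR at an unadjusted p under 0.05), and pairs of 19 and 9 in HepG2 and 8 and 4 in K562. With the libraries of a single line, 8 sites were repressed in HepG2 and 2 in K562, and pairs in HepG2 counted 51 above and 31 below. At least 50 reads per barcode left 3 repressed in HepG2, and DESeq2 gave 7 in K562.

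The replicate block left 11 sites above and 6 below their scramble in HepG2 and 0 and 0 in K562 (21 and 9 by limma at an unadjusted p under 0.05). It moved no other count by more than 1.5 times and, among the named elements, changed no call other than those given in the report.

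Leaving out each transfection gave 28 to 46 active and 1 to 8 repressed sites in HepG2, and 11 to 17 and 1 to 8 in K562. Differences between the lines ranged from 22 to 59, with 20 to 47 for HepG2 and 2 to 12 for K562. Pairs ranged from 16 to 51 above and 7 to 31 below in HepG2 and from 12 to 25 and 5 to 21 in K562. The lone transfection then left is assumed to vary like the other groups.

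Direction turned in 2 of 749 values of named elements: chr6:89850041 differed between the lines by -0.12 without its highest barcode, and chr16:76157977 from its scramble in K562 by 0.10 with the median over barcodes. The causes were not tested, beyond the barcode left out. Many of the 749 values could not turn, because the stricter percentile and the added fold keep the estimate of the report. For activity in a single line, leaving out the other line's transfections hardly changed the estimate. Scaling on all elements hardly changed that of a pair. Of 58 named results 22 kept direction and call throughout. Scaling on all elements moved the median of the sites from 0.06 to -0.02 in HepG2 and from -0.02 to -0.06 in K562. DESeq2 was not run for pairs, nor a single line for the difference between lines.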

Other observations

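Of the 8 sites below -1 in K562, 1 was called repressed. The 8 had between 118.5 and 711.2 DNA reads per library and as few as 4 RNA reads in a K562 library. The SD between the K562 transfections had a median of 1.18 over these sites, against 0.17 over all 298 sites in K562 and 0.13 in HepG2.

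The sites were spread over the genome, with 55 on chromosome 2, which is 13.4% of them against 10.2% of bound sites of all classes, 38 on chromosome 1 and 35 on chromosome 16. No pair of these sites lay within 10000 bases, and 13 had a bound site of another class within that distance. Of the 10 of those that were tested, 1 was active in HepG2 and 1 in K562, too few to set against the shares of 14.8% and 7.72% over all tested sites. That HepG2 site, chr22:37429000, at a mean of 0.67, lay 992 bases from a HepG2-only site with RNA polymerase II, chr22:37428008, at -0.40. Another such site, chr22:37430380, lay 1380 bases away and was at 0.13 in HepG2. By the median barcode chr22:37429000 was at 0.70 in HepG2 and lost its call (limma adjusted p = 0.0778).

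Barcodes with more G and C read somewhat lower in HepG2. The median deviation of a barcode from its site's mean was 0.16 for the 57 barcodes with 2 G or C bases and -0.19 for the 55 with 7, against 0.07 and -0.002 in K562. For the 353, 283 and 249 barcodes with 4, 5 and 6 such bases the HepG2 median was 0.01, -0.02 and -0.07. Over all 1129 barcodes rho was -0.135 in HepG2 and -0.035 in K562 (Spearman).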
